A study of Mus musculus with 6 samples.

Results

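Lysosomal cathepsins are the proteases that break down proteins inside lysosomes. Here they are 10 of 18193 genes with a probe set of their own, namely Ctsa, Ctsb, Ctsc, Ctsd, Ctsh, Ctsk, Ctsl, Ctso, Ctss and Ctsz, read in hearts with and without caveolin-1. The genes were given as a list, and their probe sets were taken wherever the platform annotation gives exactly 1 symbol, that of a member. A probe set is a group of short array probes that report on 1 transcript. This gave 22 of the 34945 probe sets with exactly 1 symbol, and all 22 were kept. The hearts came from male mice 5 to 6 months old that had been fasted for 6 hours, 3 of them labelled wild type and 3 labelled as Cav1 knockouts. Each gave 1 Affymetrix array. The labels number the wild-type hearts, and the knockout hearts are numbered here in accession order. Strain and deleted exons are not in the labels. Nor do these state that the hearts are from separate animals, so the spread among the hearts of a group may be technical in part. Each p-value rests on that spread, drawn toward its trend over all tested probe sets. Cav1 encodes the main coat protein of caveolae, the flask-shaped pits of the plasma membrane.

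Most cathepsins are cysteine proteases, Ctsd is an aspartic protease and Ctsa is a serine carboxypeptidase. They are made as inactive precursors, carried to the lysosome largely by the mannose 6-phosphate receptors, and cleaved to their active form in its acid interior. Some are found in nearly every cell, whereas others are most abundant in leukocytes, where they trim antigens and activate the proteases of granules. In heart tissue the macrophages, fibroblasts, endothelial cells and muscle cells all hold lysosomes, and whole-tissue RNA adds them together. The 10 genes were therefore read in classes: Ctss, Ctsc, Ctsh and Ctsz as leukocyte cathepsins, Ctsa, Ctsb, Ctsd, Ctsl and Ctso as broadly expressed ones, and Ctsk, known from osteoclasts and fibroblasts, apart from both. The classes follow textbook tissue distribution, but they were set with earlier results of these data known.

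Promoter sequence was looked up because the classes are known for different regulators. PU.1, an ETS factor of myeloid cells, binds GAGGAAGT. TFEB, a regulator of lysosomal genes in most cells, binds the E-box CACGTG within the longer CLEAR element. RefSeq promoters of GRCm38.p6 were at hand for 8 of the 10 genes, all but Ctsb and Ctsh, as 9 start sites. They were searched on both strands from 250 bases before to 10 bases after the start site. The 3 shown are those of Ctss, of its class partner Ctsc and of the broadly expressed Ctsd. Each of these holds the motif named for its class, which not every member promoter does. Capitals mark GAGGAAGT, read here on the other strand, in Ctss and Ctsc, and CACGTG in Ctsd. Ctss lies at chr3:95526536-95526795 on the plus strand, Ctsc at chr7:88277835-88278094 on the plus strand, and Ctsd at chr7:142387818-142388077 on the minus strand.
Ctss: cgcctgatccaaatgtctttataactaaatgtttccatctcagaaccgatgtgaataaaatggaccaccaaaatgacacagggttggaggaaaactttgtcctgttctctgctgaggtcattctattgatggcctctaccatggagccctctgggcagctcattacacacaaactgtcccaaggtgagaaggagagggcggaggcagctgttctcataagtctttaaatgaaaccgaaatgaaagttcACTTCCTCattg
Ctsc: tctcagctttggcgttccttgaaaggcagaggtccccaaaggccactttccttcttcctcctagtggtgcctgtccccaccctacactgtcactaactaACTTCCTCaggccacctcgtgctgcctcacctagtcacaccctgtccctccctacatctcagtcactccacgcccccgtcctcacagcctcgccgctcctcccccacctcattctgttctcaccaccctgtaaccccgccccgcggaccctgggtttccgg
Ctsd: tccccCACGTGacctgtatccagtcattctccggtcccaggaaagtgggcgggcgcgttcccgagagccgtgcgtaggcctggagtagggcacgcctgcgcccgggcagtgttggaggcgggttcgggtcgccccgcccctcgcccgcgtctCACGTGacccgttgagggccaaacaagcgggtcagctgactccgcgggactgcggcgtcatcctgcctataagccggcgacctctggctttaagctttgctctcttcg

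GAGGAAGT was found in the promoters of Ctss, at position -2 from the start site, and Ctsc, at position -151. Over all 32851 promoters of that length, 2.60% hold it. CACGTG was found in 3 member promoters, those of Ctsd, at positions -245 and -98, Ctsl, at -236, and 1 of the 2 start sites of Ctsa, at -12. It is held by 6.34% of all promoters. In Ctsd at -99 and Ctsa at -13 the E-box lies within TCACGTGA, which contains it and which 0.874% of promoters hold. The GC box GGGCGG, searched as a common element, was in 5 of the 9 and in 33.4% of all promoters. The leukocyte Ctsz and the broad Ctso had a GC box but neither GAGGAAGT nor CACGTG. These matches are a description of the letters in these windows. The motifs were chosen after the expression values were known.

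Cav1 itself had intensities of 3853, 3836 and 4216 in wild-type hearts against 118, 101 and 101 in the knockouts, which fits the labels. Intensities throughout are quantile normalised, so that all 6 arrays share 1 distribution. Differences are knockout minus wild type in log2(intensity + 16). The added 16 makes changes of dim probe sets look smaller than they are. A probe set passed at a Benjamini-Hochberg adjusted p under 0.05 from limma, fitted over the 22519 probe sets in the upper 50% by mean, and 19 of the 22 cathepsin probe sets were among them. The cardiomyocyte markers identify the tissue: the lowest intensity of any of the 6 genes in any heart was 5373, and 0 of 6 passed in limma (0 at an unadjusted p under 0.05).

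Among the 10 member cathepsins Ctss rose, and no other passed. Of the 19 tested probe sets 1 passed as higher, 0 as lower and 18 did not pass. This is 5.26% of them, beside 3.17% of all tested probe sets called in either direction and 2.36% called as higher, so the count of calls is near the background. The array-wide split of calls depends on the scaling, with 531 higher and 183 lower here and 577 higher and 58 lower for the values as deposited. The estimates of the classes are given side by side. All 8 tested probe sets of the leukocyte class were above 0, as are 46.9% of all tested probe sets, with a median log2 difference of 0.26, whereas the 10 of the broad class ran from -0.18 to 0.18 with a median of 0.039. The median of all tested probe sets was -0.0096. The difference between the classes was not tested.

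**Figure D1:**
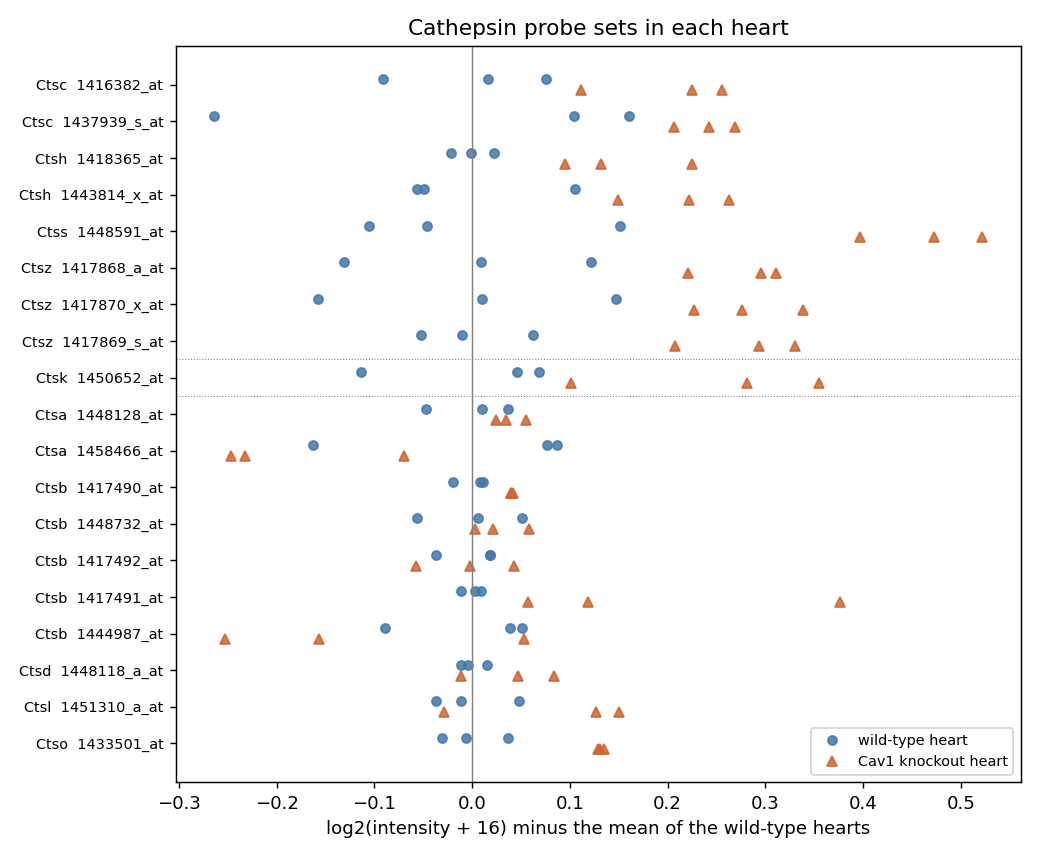
Each row is 1 of the 19 tested cathepsin probe sets and each symbol 1 heart, 3 wild-type (circles) and 3 Cav1 knockout (triangles); the x axis gives log2(intensity + 16) minus the mean of the wild-type hearts. Dotted lines part the leukocyte class (top), Ctsk and the broadly expressed class (bottom). In all 8 rows of the leukocyte class the knockout hearts lie to the right of all wild-type hearts, in the broad class in 3 of 10. Among all tested probe sets the share is 12.3%.

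Ctss encodes cathepsin S, the protease that cleaves the invariant chain from MHC class II molecules in antigen-presenting cells. Its probe set 1448591_at measured 572, 687 and 597 in wild-type hearts, against 893, 817 and 862 in the knockouts. All knockout hearts lay above all wild-type hearts. The means were 619 ± 60.5 and 857 ± 37.9 (SD, n = 3 each). Ctss thus rose by 0.46 in log2 units (SE 0.071, 95% interval 0.30 to 0.62, limma adjusted p = 0.0114), a factor of 1.38. Leaving out 1 heart could end the call. The adjusted p from limma was 0.0681 without knockout replicate 1, and it was 0.0537 when wild type replicate 3 was left out, with log2 differences of 0.44 in both. Over all 15 alternatives the log2 difference stayed between 0.41 and 0.54.

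Ctsz encodes cathepsin Z, also called cathepsin X, a carboxypeptidase abundant in monocytes and macrophages. It has 3 tested probe sets, annotated from 1 transcript record, which therefore do not count as independent measurements. Probe set 1417868_a_at stood at 588, 650 and 704 in wild-type hearts and 796, 804 and 755 in knockout hearts. The dimmer 1417869_s_at gave 190, 180 and 175 against 226, 232 and 212. In 1417870_x_at the values were 335, 378 and 417 against 478, 457 and 442. Every knockout heart was above every wild-type heart in all 3. The log2 differences were 0.28 in each, with SEs of 0.067, 0.063 and 0.078, and none passed (limma adjusted p = 0.0660, 0.0518 and 0.0970). The call of 1417869_s_at turned on the processing: with the values as deposited the log2 difference was 0.34 (limma adjusted p = 0.0324), and with median centring it was 0.36 (limma adjusted p = 0.0355). It also passed with array weights and among the upper 25% of probe sets, where 1417868_a_at passed as well.

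**Figure D2:**
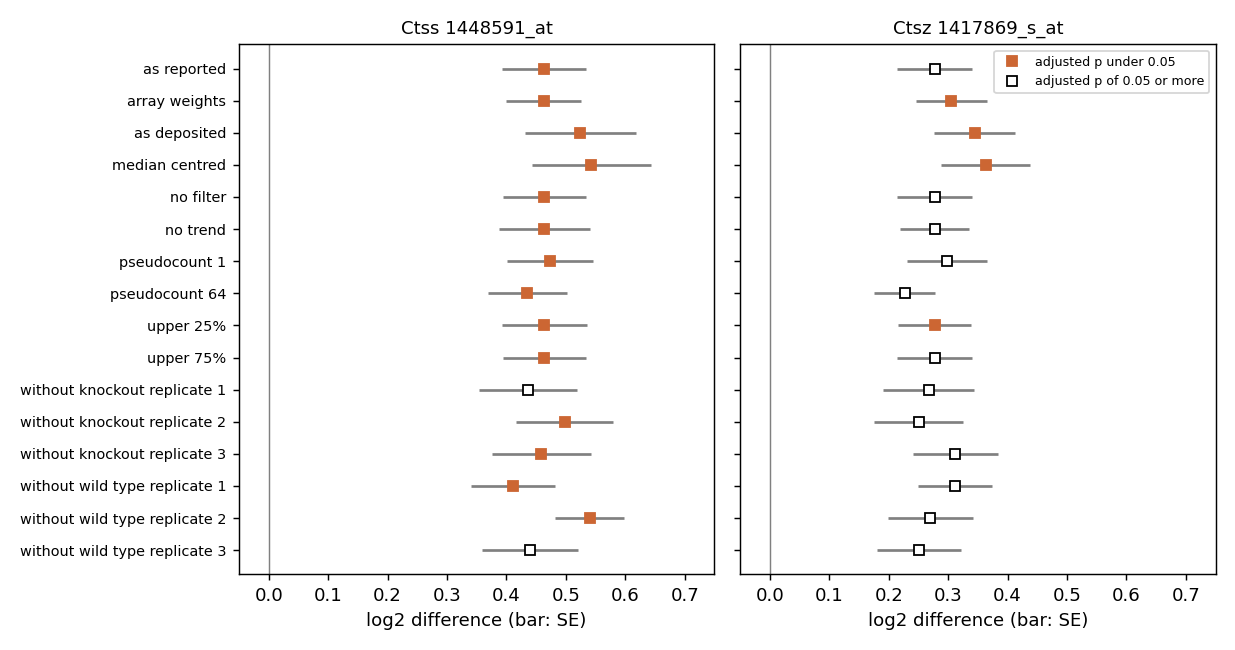
Log2 difference (knockout minus wild type, bar: SE) of the Ctss probe set and of 1 Ctsz probe set as reported and under 15 alternatives; filled squares have a limma adjusted p under 0.05 and open ones do not. Ctss stays between 0.41 and 0.54 and loses its call when knockout replicate 1 or wild type replicate 3 is left out, while the Ctsz probe set stays between 0.23 and 0.36 and passes in 4 alternatives.

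Ctsc encodes cathepsin C, or dipeptidyl peptidase 1, which activates the serine proteases of leukocyte granules. Its brightest probe set 1416382_at read 1136, 1184 and 1053 in wild-type hearts against 1214, 1344 and 1316 in the knockouts. The groups did not overlap, but the highest wild-type and the lowest knockout heart were close. The log2 difference was 0.20 (SE 0.058, 95% interval 0.067 to 0.33) and did not pass (limma adjusted p = 0.109). A dim probe set, 1437939_s_at, had a difference of 0.24 with an interval from -0.0071 to 0.49, and its wild-type values of 32.5, 49.1 and 46.6 were more scattered than the knockout values of 54.2, 51.3 and 52.9. Without wild type replicate 1, the lowest of them, the difference was 0.11. The third, 1446834_at, was too low to be tested, with intensities between 12.7 and 16.4 in all hearts.

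Ctsh encodes cathepsin H, an aminopeptidase of leukocytes that also occurs in lung epithelium. Probe set 1418365_at stood at 606, 614 and 625 in wild-type hearts and 658, 676 and 722 in knockout hearts. The other, 1443814_x_at, gave 205, 232 and 206 against 239, 252 and 260. The groups were apart in both. The log2 differences were 0.15 (SE 0.050) and 0.21 (SE 0.067), and neither passed (limma adjusted p = 0.149 and 0.132).

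Across the leukocyte class, then, 1 of 8 tested probe sets passed and 7 did not, while 7 of the 8 had an unadjusted p under 0.05 in limma. The share of all tested probe sets with an unadjusted p under 0.05 and a higher level in knockout was 10.3%. In all 8 the 3 knockout hearts lay above the 3 wild-type hearts, which holds for 12.3% of all tested probe sets. Without Ctss the class had 7 tested probe sets with a median log2 difference of 0.24. At the brightest probe set of each of the 4 genes, the class mean relative to the wild-type mean was -0.061, 0.059 and 0.0019 in the wild-type hearts and 0.26, 0.27 and 0.29 in the knockout hearts. Probe sets of 1 gene share a transcript and all genes share the 6 arrays, so these counts are not independent draws.

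**Figure D3:**
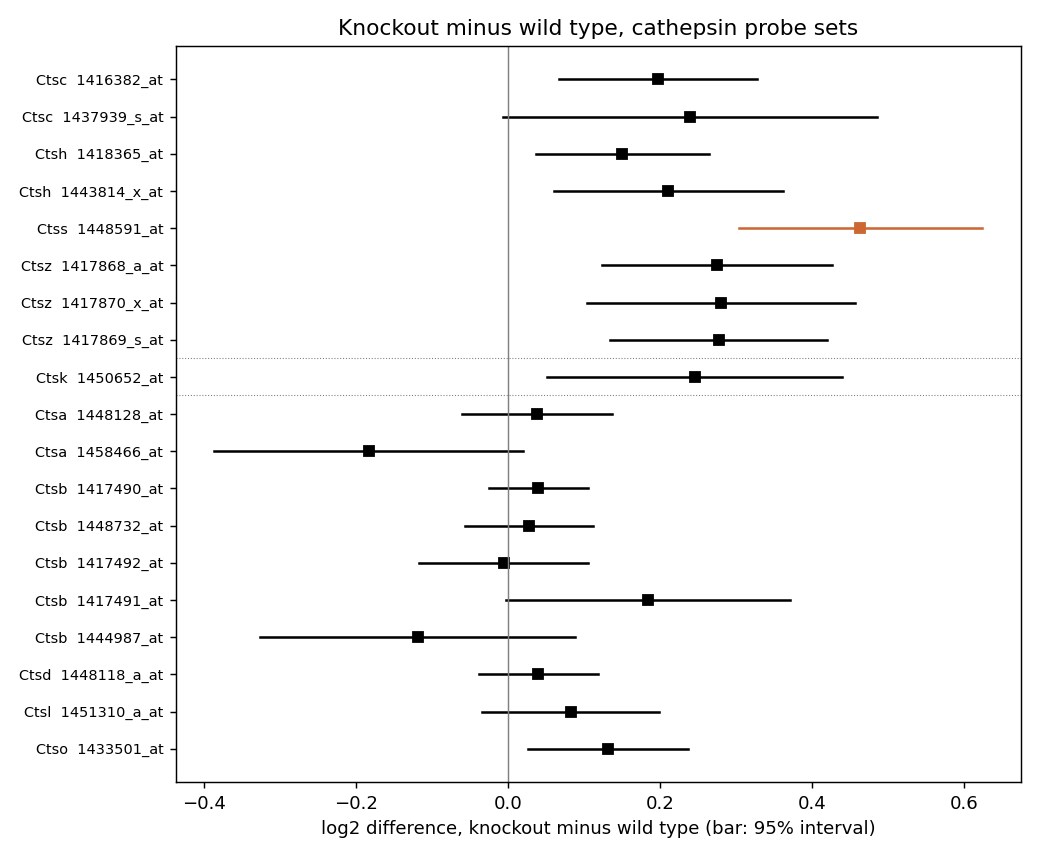
Log2 difference of the 19 tested cathepsin probe sets (squares) with the 95% interval of each from limma, not adjusted for the number of probe sets; dotted lines part the leukocyte class, Ctsk and the broad class, and colour marks the 1 probe set that passed. Ctss at 0.46 stands farthest to the right, the 3 Ctsz probe sets coincide at 0.28, and the intervals of Ctsd and of the 2 brightest Ctsb probe sets are narrow and include 0.

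Ctsk encodes cathepsin K, the collagen-degrading protease of osteoclasts, also made by activated fibroblasts. Its gene is the next protein-coding neighbour of Ctss in the RefSeq table. The single probe set 1450652_at stood at 112, 98.5 and 114 in wild-type hearts and at 117, 143 and 135 in knockout hearts. Knockout replicate 1 lay just above the highest wild-type heart, and knockout replicates 2 and 3 were higher. The log2 difference was 0.25 (SE 0.086, 95% interval 0.052 to 0.44) and did not pass (limma adjusted p = 0.164). Of 7 fibroblast markers 2 rose in the same hearts, Col1a1 by 0.51 and Col3a1 by 0.65. Col1a2 and Lum had 0.33 and 0.25 with the groups apart and did not pass. Dcn, Pdgfra and Tcf21 had 0.10, 0.12 and 0.045 with overlapping groups and did not pass either. The summed intensity of the 7 genes was 11277 to 12977 in wild-type and 13506 to 16473 in knockout hearts. Only Col1a1 passed in limma when knockout replicate 1 or wild type replicate 3 was left out, with adjusted p of 0.0569 and 0.0722 for Col3a1. The part of these markers in the Ctsk values was not tested.

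Of the broadly expressed cathepsins, none of the 10 tested probe sets passed in limma, and 1 had an unadjusted p under 0.05. Of all tested probe sets 3.17% passed, and 10.3% had an unadjusted p under 0.05 and a higher level in knockout. Both counts of the class are thus near the background. The broad class also had 0 calls under each of the 15 alternatives. Ctsd encodes cathepsin D, the main aspartic protease of lysosomes. Its probe set 1448118_a_at read 3867, 3848 and 3921 in wild-type hearts against 4008, 4113 and 3848 in the knockouts. The groups overlapped, as knockout replicate 3 equalled the lowest wild-type heart to the digits shown. The log2 difference was 0.040, with a 95% interval from -0.038 to 0.12 (limma adjusted p = 0.531).

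Ctsb encodes cathepsin B, an abundant cysteine protease with both endo- and exopeptidase activity, and has 5 tested probe sets. The brightest, 1417490_at, stood at 4157, 4249 and 4239 in wild-type hearts and 4332, 4338 and 4332 in knockout hearts. The groups did not overlap, yet the log2 difference was 0.040 with an interval from -0.025 to 0.11. Next, 1448732_at gave 3532, 3382 and 3644 against 3526, 3663 and 3571, a difference of 0.028 with an interval from -0.057 to 0.11. Both intervals lie below the Ctss estimate of 0.46. The probe set 1417492_at had -0.0056. The largest value was 0.18 at 1417491_at, where the knockout values were 340, 269 and 282 against 256, 259 and 260 in wild type. All knockout hearts lay above all wild-type hearts there, but the difference came mainly from knockout replicate 1. At 1444987_at, which barely passed the filter on low values, the difference was -0.12 with overlapping groups.

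Ctsl encodes cathepsin L, a cysteine endopeptidase needed for normal heart muscle in mice. Its bright probe set 1451310_a_at stood at 2582, 2629 and 2739 in wild-type hearts and 2894, 2942 and 2597 in knockout hearts. Knockout replicates 1 and 2 were the highest of all and knockout replicate 3 lay within the wild-type range. The log2 difference was 0.083 with an interval from -0.034 to 0.20 (limma adjusted p = 0.391). The other probe set, 1457724_at, was below the filter, at 31.7 to 34.4 in wild-type and 34.4 to 40.0 in knockout hearts.

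Ctsa encodes protective protein, a carboxypeptidase that keeps beta-galactosidase and neuraminidase stable in the lysosome. Its bright probe set 1448128_at stood at 840, 875 and 892 in wild-type hearts and 890, 903 and 884 in knockout hearts, with a log2 difference of 0.038 and an interval from -0.060 to 0.14. The dim 1458466_at pointed the other way, at -0.18 with an interval from -0.39 to 0.021, and both had overlapping groups. Its partners Glb1 and Neu1 had log2 differences of -0.089 and -0.031 and did not pass (limma adjusted p = 0.508 and 0.843).

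Ctso encodes cathepsin O, a little-studied cysteine protease of many tissues. Probe set 1433501_at stood at 488, 497 and 513 in wild-type hearts and 548, 550 and 547 in knockout hearts. The knockout hearts were nearly equal and all above wild type. Its log2 difference of 0.13 (SE 0.046, interval 0.027 to 0.24) was the 1 in the broad class with an unadjusted p under 0.05, and it did not pass after adjustment (limma adjusted p = 0.167). The other probe set, 1443084_at, was below the filter, with 27.5 to 32.2 in wild-type and 30.3 to 32.7 in knockout hearts.

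The broad class as a mean over the brightest probe sets of its 5 genes was -0.028, -0.0014 and 0.029 in the wild-type hearts and 0.076, 0.093 and 0.031 in the knockout hearts, relative to the wild-type mean. Knockout replicate 3 lay beside the highest wild-type heart here, whereas in the leukocyte class it was narrowly the highest of the 6 hearts. The knockout hearts of that class were close, at 0.26, 0.27 and 0.29. Without Ctss, knockout replicate 2 was the highest, at 0.23 against 0.22 in knockout replicate 3.

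**Figure D4:**
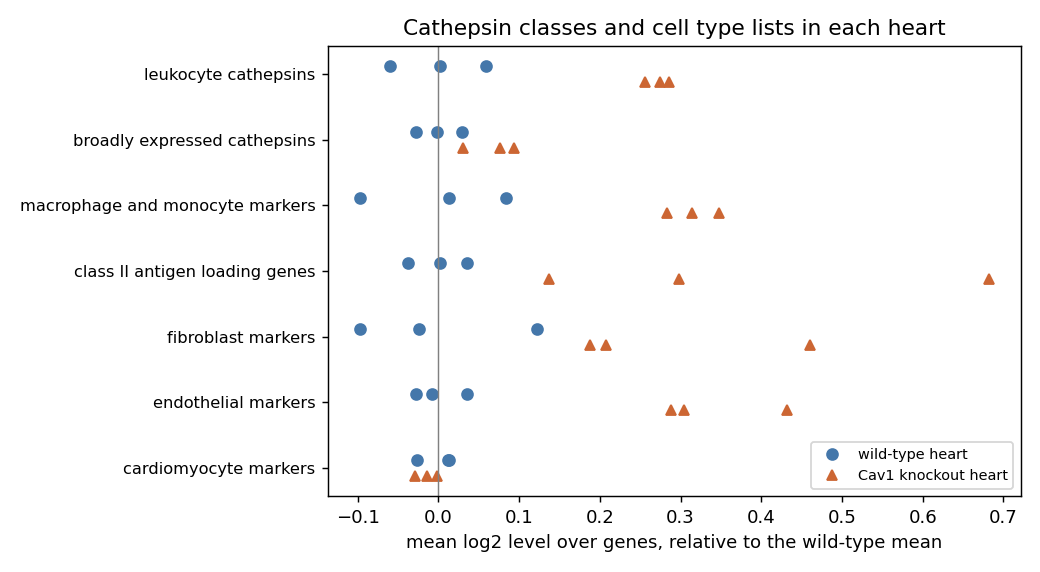
Mean log2 level over the brightest probe set of each tested gene, relative to the wild-type mean (x axis), in each of 3 wild-type (circles) and 3 knockout (triangles) hearts for both cathepsin classes, class II antigen loading genes and markers of 4 cell types. The leukocyte cathepsins lie at 0.26 to 0.29 in the knockout hearts, beside macrophage and monocyte markers at 0.28 to 0.35, endothelial markers at 0.29 to 0.43 and fibroblast markers at 0.19 to 0.46, while the broad class lies at 0.031 to 0.093 and the cardiomyocyte markers near 0.

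Macrophage and monocyte markers were higher in the same hearts as the leukocyte cathepsins. Of 22 listed genes 21 were tested, all 21 had estimates above 0, 8 rose, none fell and 13 did not pass, with a median log2 difference of 0.27. The summed intensity of the 22 genes ran from 11700 to 13353 in wild-type and from 14785 to 15173 in knockout hearts. Ptprc, the pan-leukocyte phosphatase CD45, rose by 0.75, Laptm5, a lysosomal membrane protein of blood cells, by 0.54 at its brightest probe set, and Cd14, the endotoxin co-receptor, by 0.44. Tyrobp, a signalling adaptor, rose by 0.35, C1qa, a complement subunit, by 0.31 and Mrc1, the mannose receptor, by 0.27. The other tested probe sets of Laptm5 had 0.089, 0.15 and -0.13, and none of them passed. Itgam was the 1 marker below the filter. The defining Cd68 and Csf1r, chosen after their values were seen, had log2 differences of 0.32 and 0.17 and did not pass (limma adjusted p = 0.0670 and 0.116). Csf1r is given at its brightest probe set. Its other tested probe sets had 0.13 and 0.086 with overlapping groups, and neither passed. When a single knockout heart was left out the count of 8 became 0 (replicate 1), 1 (replicate 2) or 3 (replicate 3). Without a single wild-type heart it became 5 (replicate 1), 6 (replicate 2) or 2 (replicate 3). The count was 3 without the trend and 4 with no filter, but 12 with array weights and 9 among the upper 25% of probe sets. More macrophages and more RNA of these genes per macrophage cannot be told apart in whole tissue, and the part of the markers in the Ctss values was not tested.

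Macrophage markers were not the only ones to move. Of 5 endothelial markers 3 rose and 2 did not pass, with a median log2 difference of 0.42, and the count of 3 was the same under each of the 15 alternatives. Pecam1, the adhesion molecule CD31, read 604, 568 and 600 in wild-type hearts against 1049, 976 and 900 in the knockouts. It rose by 0.71 (SE 0.061, limma adjusted p = 0.00095). The receptor kinases Tek and Tie1 rose by 0.49 and 0.42, while Cdh5 and Kdr had 0.13 and -0.039 with overlapping groups. The summed intensity of the 5 was 2383 to 2495 in wild-type and 3029 to 3377 in knockout hearts. Adipocyte markers had lower values: Adipoq, the hormone adiponectin, had a log2 difference of -1.89 with overlapping groups and did not pass (SE 0.55, limma adjusted p = 0.109). It passed with array weights, at -2.36, and without knockout replicate 3, at -2.51 (limma adjusted p = 0.0369 and 0.0224). Retn, the other tested gene of that list, had -0.25, and their summed intensity with Lep was 365 to 953 in wild-type and 155 to 396 in knockout hearts. The part of endothelial and adipocyte content in the cathepsin values was not tested.

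No tested marker of other leukocytes passed with all 6 hearts. The neutrophil genes S100a8 and S100a9 were high in 2 knockout hearts, S100a8 at 269 and 491 and S100a9 at 310 and 458. In knockout replicate 3 they were at 85.3 and 79.8, within or just below the wild-type range. The log2 differences were 0.93 (SE 0.48) and 1.09 (SE 0.49), larger than that of any macrophage marker but with overlapping groups. Without knockout replicate 3 both passed, at 1.57 and 1.77 (limma adjusted p = 0.0281 and 0.0069). Ctss stood at 893, 817 and 862 in knockout replicates 1, 2 and 3. The part of neutrophil content in the Ctss values was not tested. The neutrophil granule genes Elane, Mpo, Camp and Ltf were below the filter and not tested. They pointed the other way, with log2 differences of -0.21, -0.22, -0.21 and -0.45 and overlapping groups. Of 4 tested T and NK cell markers, 2 B cell markers and 2 dendritic cell markers, 0 passed in limma and 0 had an unadjusted p under 0.05.

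Class II antigen loading genes, whose pathway cathepsin S serves, all had estimates above 0 but did not pass: 0 of 5 tested in limma, and 4 at an unadjusted p under 0.05. Cd74, the invariant chain that cathepsin S cleaves, stood at 1137, 1185 and 1084 in wild-type hearts and 1476, 1302 and 1892 in knockout hearts. The groups were apart, with knockout replicate 3 far above the rest. Its log2 difference was 0.43 (SE 0.11, limma adjusted p = 0.0822). Without knockout replicate 2 it was 0.55 and passed (limma adjusted p = 0.0491), the 1 call of the list in any alternative. Knockout replicate 3 was also the highest heart for H2-Aa, H2-Ab1, H2-Eb1 and H2-DMa, whose log2 differences were 0.42, 0.39, 0.38 and 0.23. Ctss was highest in knockout replicate 1, and its relation to the class II genes was not tested.

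The rest of the lysosome was measured from lists of its other parts. Of 27 tested hydrolases other than cathepsins 1 rose, 0 fell and 26 did not pass, with a median log2 difference of 0.0074. An unadjusted p under 0.05 was reached by 9 of them, in both directions. Gaa, Idua, Galc and Ppt2 had -0.15, -0.20, -0.26 and -0.14, and Arsa, Gusb, Ids and Asah1 had 0.20, 0.21, 0.11 and 0.12. The 1 that rose was Prcp, a lysosomal serine carboxypeptidase that cleaves after proline. It stood at 101, 137 and 145 in wild-type hearts and 203, 189 and 211 in knockout hearts, and rose by 0.60 (SE 0.11, limma adjusted p = 0.0278). A second probe set of Prcp rose by 0.49. The brightest one did not pass without knockout replicate 1, 2 or 3, with limma adjusted p between 0.0755 and 0.122. Among 13 genes of sorting and activation, such as the receptors Igf2r and M6pr and the cathepsin-activating protease Lgmn, 0 passed in limma and 3 had an unadjusted p under 0.05, with a median of -0.029. Igf2r had a log2 difference of -0.12, M6pr 0.087, Lgmn 0.13 and Tfeb -0.17. Those 3 were Igf2r, Sort1 at -0.29 and Grn at 0.19, each with the groups apart. Of 10 lysosomal membrane proteins 0 passed (3 unadjusted, median -0.031), and of 15 proton pump subunits 0 passed (2 unadjusted, median 0.025).

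**Figure D5:**
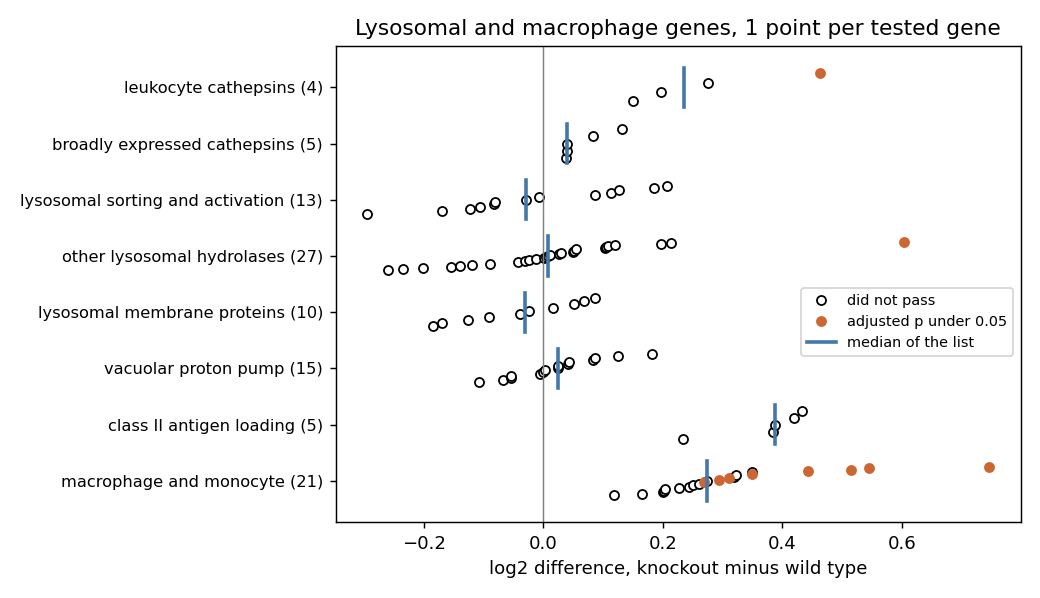
Log2 difference (knockout minus wild type) of each tested gene at its brightest probe set, by list, with the number of genes in brackets; filled points have a limma adjusted p under 0.05 and the blue bar is the median of the list. The medians of the sorting, hydrolase, membrane and proton pump lists lie between -0.031 and 0.025, that of the broad cathepsins at 0.040, and those of the leukocyte cathepsins, class II genes and macrophage markers at 0.24, 0.39 and 0.27.

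No tested cathepsin inhibitor passed. Of 8 listed genes with a probe set of their own 3 were tested, and 0 passed in limma (0 at an unadjusted p under 0.05). Cst3, the secreted cystatin C, stood at 5708, 5735 and 5665 in wild-type hearts and 5742, 5769 and 6002 in knockout hearts, a log2 difference of 0.033. Cstb, the cytosolic stefin B, had 0.072 with overlapping groups. Cst7, the leukocyte cystatin, was below the filter.

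Among other cathepsins Ctsf fell. It encodes cathepsin F, a cysteine protease of heart and other tissues, and stood at 613, 589 and 572 in wild-type hearts and 498, 512 and 506 in knockout hearts. The groups were apart. Its level fell by 0.22 in log2 units (SE 0.048, limma adjusted p = 0.0466), a direction opposite to that of Ctss. The call is fragile: with the values as deposited the log2 difference was -0.16 (limma adjusted p = 0.189), with median centring it was -0.14 (limma adjusted p = 0.295), and leaving out any of the 6 hearts gave an adjusted p from limma between 0.0733 and 0.176. Ctse and Ctsw had -0.17 and -0.084 at their brightest probe sets and did not pass. The other 10 of the 13 listed genes, among them Ctsg of neutrophil granules and the placental cathepsins, were below the filter.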

How the data were processed

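The labels' protocols describe Trizol extraction, column clean-up and biotin labelling of 2 ug of total RNA. The deposited table holds the authors' intensities on a linear scale, 1 per probe set and array. The submitters' processing notes name GCOS 1.4 without saying what it did. Summarisation and scaling of the probe sets are not given in the sources used here. Deposited medians lay between 43.9 and 45.8 in the 6 arrays, and no pair of arrays shared more than 2252 of 45101 values. Trimmed means (2% at each end) differed by 8.42%, which turned on wild type replicate 1.

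The 64 control probe sets were removed. Intensities were quantile normalised, turned into log2(intensity + 16) and fitted in limma 3.58.1 (R 4.3.3; lmFit, then eBayes with a trend) over the 22519 of 45037 probe sets in the upper 50% by mean. P was adjusted after Benjamini and Hochberg, with a threshold of 0.05. The fit was tested on simulated data. Names come from the platform annotation of 2016. Gene lists count the brightest probe set of each gene. The text names every cathepsin probe set, and of each list up to 6 genes that passed, those with the smallest p. Other genes were chosen for their known role or after their values were seen. Members and lists were chosen with earlier results of these data known. The number of arrays limits the precision.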

Additional observations from a re-analysis of the deposited data

How the results depend on the processing

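The 15 alternatives changed the scaling, pseudocount, filter, variance model or array weights, or left out 1 heart. Of 278 recomputed values of single cathepsin probe sets, 265 kept their direction and side of the threshold, 5 gained a call, 2 lost it and 6 changed sign. The 6 are of Ctsb and none passed the threshold: 1417492_at turned to 0.062 as deposited and 0.080 with median centring, and with 1 heart left out it ran from -0.030 to 0.020, above 0 in 3 cases. Likewise 1448732_at ran from -0.00038 to 0.053, below 0 in 1 case. The cause was not tested. Calls over all probe sets numbered 1171 with array weights, 411 without the trend and 189 to 749 with 1 heart left out (wild type replicate 1: 470, wild type replicate 3: 299, knockout replicate 1: 189, knockout replicate 2: 227). Calls of the 10 member cathepsins were all in the leukocyte class. They numbered 2 with array weights, 2 as deposited, 2 with median centring and 3 among the upper 25%. With 1 heart left out they numbered 0 to 1. No paired analysis was possible because the labels give replicate numbers for the wild-type hearts only. With 3 hearts a group, the 95% intervals of Ctsd and Ctsl include 0 and reach up to 0.12 and 0.20.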
